A study of Mus musculus with 57 samples.

Results

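The 10 genes studied here, all linked to muscle atrophy, were followed by symbol through both gene count tables of this heart study and were found among the 25416 genes of the acute table and the 54658 genes of the chronic table. They are 6 ubiquitin ligases of striated muscle (*Fbxo32*, *Trim63*, *Trim54*, *Trim55*, *Fbxo31* and *Fbxo30*), 3 FOXO transcription factors (*Foxo1*, *Foxo3* and *Foxo4*) and the growth inhibitor myostatin (*Mstn*). They were taken as a list of gene symbols, with no threshold on their values, and all 10 passed the low-count filter in both studies. The list was chosen with earlier results of these data known. In GENCODE for GRCm38, the build of the counts, the 5 genes called below are *Fbxo31* (ENSMUSG00000052934, chr8:121549440-121578806, minus strand), *Trim54* (ENSMUSG00000062077, chr5:31116712-31137630, plus strand), *Trim63* (ENSMUSG00000028834, chr4:134315120-134329629, plus strand), *Fbxo32* (ENSMUSG00000022358, chr15:58175879-58214932, minus strand) and *Mstn* (ENSMUSG00000026100, chr1:53061640-53068079, plus strand).

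RNA was sequenced from hearts of male wild-type C57BL/6 mice after doxorubicin (Doxo), an anthracycline used against cancer that damages the heart, with or without nicotinamide mononucleotide (NMN), a precursor of NAD+. In the acute study, mice bought at 9 weeks of age were given saline (Ctrl, n = 14), 1 intraperitoneal injection of 20 mg/kg Doxo (Doxo, n = 13), or the same Doxo dose with 180 mg/kg/day of injected NMN begun 5 days earlier (Doxo-NMN, n = 13), and hearts were taken on day 5. In the chronic study, mice of 14 to 16 weeks were given phosphate-buffered saline (Ctrl, n = 5), 5 injections of 4 mg/kg Doxo that added up to 20 mg/kg (Doxo, n = 6), or this Doxo course with 500 mg/kg/day of NMN in drinking water begun 5 days earlier (Doxo-NMN, n = 6), and hearts were taken on day 60. NMN without Doxo was not analysed here, and hearts came from the mice alive at collection.

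Striated muscle breaks down proteins largely by tagging them with ubiquitin, and the ligases choose which proteins are tagged. *Fbxo32* (atrogin-1) and *Trim63* (MuRF1) are the best known ligases of wasting muscle, and in heart MuRF1 acts on sarcomere proteins such as troponin I and myosin heavy chain. FOXO factors raise the transcription of both when insulin and IGF-1 signalling through Akt is low, glucocorticoids can act together with them, and myostatin signals through SMAD proteins to restrain muscle growth.

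Promoters are printed for the ligases that rose in the acute study and had an entry, because forkhead factors and the glucocorticoid receptor are known to act on the *Trim63* promoter. RefSeq start sites on GRCm38.p6 gave a window of 250 bases before to 50 bases after the start for 7 of the 10 genes (*Trim63*, *Trim54*, *Fbxo31*, *Fbxo30*, *Foxo1*, *Foxo3* and *Mstn*). Capitals mark the forkhead motif GTAAACA and the receptor motif ACANNNTGT, each searched on both strands. The windows are those of *Trim63* (chr4:134314870-134315169, plus strand), *Trim54* (chr5:31116362-31116661, plus strand) and *Fbxo31* (chr8:121578757-121579056, minus strand).
Trim63: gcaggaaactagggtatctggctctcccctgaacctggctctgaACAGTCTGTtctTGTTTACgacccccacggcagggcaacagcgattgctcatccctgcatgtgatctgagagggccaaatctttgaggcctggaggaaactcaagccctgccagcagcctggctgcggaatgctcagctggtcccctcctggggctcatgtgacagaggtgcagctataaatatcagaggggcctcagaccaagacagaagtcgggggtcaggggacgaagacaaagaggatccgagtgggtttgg
Trim54: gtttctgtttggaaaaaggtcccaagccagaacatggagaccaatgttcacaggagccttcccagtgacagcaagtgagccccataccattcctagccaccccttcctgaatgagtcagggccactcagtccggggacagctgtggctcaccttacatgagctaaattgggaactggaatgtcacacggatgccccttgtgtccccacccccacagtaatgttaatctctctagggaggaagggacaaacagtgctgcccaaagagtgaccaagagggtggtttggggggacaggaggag
Fbxo31: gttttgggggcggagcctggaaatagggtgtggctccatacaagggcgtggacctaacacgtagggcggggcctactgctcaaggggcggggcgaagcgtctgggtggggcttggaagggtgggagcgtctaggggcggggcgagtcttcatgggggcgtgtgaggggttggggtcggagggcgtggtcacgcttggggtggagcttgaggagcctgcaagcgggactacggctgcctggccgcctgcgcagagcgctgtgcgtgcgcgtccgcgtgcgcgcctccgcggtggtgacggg
Among the 7 windows, only that of *Trim63* held either motif. Its forkhead match ran from base -194 to -188 and its receptor match from base -206 to -198 before the start, so that 3 bases lay between them. The motifs do not overlap. Of all 32851 RefSeq promoter windows, 3.65% held the forkhead motif, 6.85% the receptor motif and 0.353% both. A match describes the letters of the window and says nothing of whether a factor was bound in these hearts.

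Acute hearts had 32409622 to 52102850 counts each and chronic hearts 17769886 to 23862287. Levels are given in CPM, counts scaled to a common library size, on which scale 3 counts amounted to 0.0576 to 0.0926 CPM and 0.126 to 0.169 CPM. Low acute counts were mostly even numbers, so that acute totals and counts may hold each RNA fragment 2 times, which was not tested. Cardiomyocyte markers were abundant in all 57 hearts, with 8 markers summing to between 30120 and 88280 CPM. Their median was 66330 CPM in acute Ctrl, 55350 CPM in acute Doxo and 72580 CPM in acute Doxo-NMN hearts. Other tissue in the samples varied with group in the acute study. The sum of 5 atrial markers had a median of 2738 CPM in the Ctrl hearts but of 56.1 and 59.8 CPM in the Doxo and Doxo-NMN hearts. Red cell markers (5 genes) summed to 437 to 4311 CPM in the Ctrl hearts, 1.19 to 338 CPM with Doxo and 0.209 to 2.81 CPM with NMN. Neutrophil markers reached 4.04 CPM at most in Ctrl and 260 CPM in 1 Doxo heart, with *Ly6g* at under 3 counts in the median heart of every group. Skeletal muscle markers were low in acute hearts, at 8.95 to 45.6 CPM for 10 markers, and higher in chronic hearts, at 553 to 2969 CPM. Their part in the results below was not tested, except where values are given for hearts with low or high atrial signal. In bulk RNA, fewer cells of a type and less RNA per cell cannot be told apart.

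Some hearts stood apart from their group in at least some of *Fbxo32*, *Trim63*, *Trim54* and *Fbxo31*. These 4 ligases lay near the Ctrl hearts in acute Doxo replicate 6, among the Doxo hearts in acute Doxo-NMN replicate 10, and above all other chronic hearts in chronic Doxo replicate 2. Doxo replicate 6 was not alone near Ctrl for *Fbxo32* and *Trim63*, where 6 and 4 of 13 acute Doxo hearts lay within the Ctrl range. For *Fbxo32*, Doxo-NMN replicate 6 at 345 CPM exceeded replicate 10 at 338 CPM. The labels of these hearts were kept.

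Per kilobase of exon, the order of the 10 genes in acute Ctrl hearts ran from *Trim54* at 92.6 ± 12.7 CPM per kb (SD, n = 14) and *Trim63* at 85.4 ± 18.3 CPM per kb, through *Trim55* at 37.7 ± 2.15, *Fbxo32* at 27.9 ± 4.20, *Foxo4* at 21.5 ± 1.17, *Fbxo31* at 18.4 ± 1.70 and *Foxo3* at 15.7 ± 2.04 CPM per kb, down to *Fbxo30* at 8.05 ± 0.981, *Foxo1* at 3.08 ± 0.202 and *Mstn* at 0.239 ± 0.134 CPM per kb. The MuRF genes were thus the most abundant of the 10 and *Mstn* the least. Among neighbours in this order the intervals of 1 SD overlapped for *Trim54* and *Trim63* and for *Fbxo31* and *Foxo3*, and for no other pair. In chronic Ctrl hearts (n = 5) *Trim54* at 205.9 ± 24.9 and *Trim63* at 78.8 ± 20.8 CPM per kb again came first and *Mstn* at 0.325 ± 0.109 CPM per kb last.

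In the acute study, Doxo raised 4 of the 6 ligases and lowered *Mstn*, while the 3 FOXO factors did not pass the test. A gene counted as called when its edgeR quasi-likelihood test, adjusted over 14240 genes, gave a p-value under 0.05 and its fold change was 1.5 or more. By this rule 14.7% of all tested genes were higher and 15.4% lower in Doxo than in Ctrl hearts, so that 4 of 10 higher and 1 of 10 lower stood beside a background in which calls were common. Without the fold change limit, 6 of the 10 genes had an adjusted p-value under 0.05, against 68.1% of all tested genes. The median log2 fold change was 0.11 over the 10 genes and -0.0016 over all genes.

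*Fbxo31*, the F-box ligase best known for targeting cyclin D1, had the largest change. Its level was 87.2 CPM in the lowest, 99.0 in the median and 119 in the highest Ctrl heart, and 101, 335 and 502 CPM in Doxo hearts. Only replicate 6 of the 13 Doxo hearts lay within the Ctrl range, and the other 12 lay above it. The difference on the log2 scale was 1.64 ± 0.18 (SE, adjusted p = 8.14e-10), or 3.12-fold. Without replicate 6 the Doxo mean was 334 ± 107 CPM (SD, n = 12). *Fbxo31* overlaps *Gm20388* on the opposite strand, as *Trim54*, *Fbxo32* and *Foxo1* overlap antisense genes. Whether the counting used strand was not given in the sources used here, so reads of these partners may be mixed.

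*Trim54* (MuRF3), a ligase that binds microtubules and sarcomeres, moved in the same way. Levels were 108, 135 and 159 CPM in the lowest, median and highest Ctrl heart and 135, 342 and 485 CPM in Doxo hearts. Again 12 of 13 Doxo hearts exceeded every Ctrl heart, and replicate 6 was the exception. This was a log2 fold change of 1.34 ± 0.15 (adjusted p = 1.06e-09), or 2.53-fold.

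*Trim63* spread more widely under Doxo. Ctrl hearts ran from 183 to 333 CPM with a median of 227 CPM, and Doxo hearts from 198 to 1128 CPM with a median of 505 CPM. Of the 13 Doxo hearts, 9 lay above the highest Ctrl heart and 4 within the Ctrl range. Its log2 fold change was 1.09 ± 0.18 (adjusted p = 2.92e-06), or 2.12-fold.

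*Fbxo32* rose least of the 4. The lowest, median and highest values were 157, 193 and 269 CPM in Ctrl and 196, 307 and 698 CPM in Doxo hearts. The groups overlapped, with 7 of 13 Doxo hearts above the Ctrl range and 6 within it. With a log2 fold change of 0.75 ± 0.15 (adjusted p = 2.6e-05), the rise was 1.68-fold.

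These 4 calls held in hearts under 100 CPM of the atrial gene *Myl4* (6 Ctrl and 8 Doxo) and in hearts at or over it (8 Ctrl and 5 Doxo), with log2 fold changes of 1.56 and 1.69 for *Fbxo31* and 0.64 and 0.83 for *Fbxo32*. They also held when any of the 40 acute hearts was left out.

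The remaining ligases did not rise. *Trim55* (MuRF2), which links titin to the nucleus, was 100 ± 5.72 CPM in Ctrl (SD, n = 14) and 81.9 ± 14.3 CPM in Doxo hearts (n = 13), and 9 of the 13 Doxo hearts lay below the lowest Ctrl heart. Its log2 fold change of -0.29 ± 0.07 (adjusted p = 0.000562) was under the fold change limit. *Fbxo30* (MUSA1), a ligase first described in denervated muscle, was 41.9 ± 5.10 CPM in Ctrl and 37.8 ± 8.24 CPM in Doxo hearts, with a log2 fold change of -0.15 ± 0.09 (adjusted p = 0.136).

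**Figure D1:**
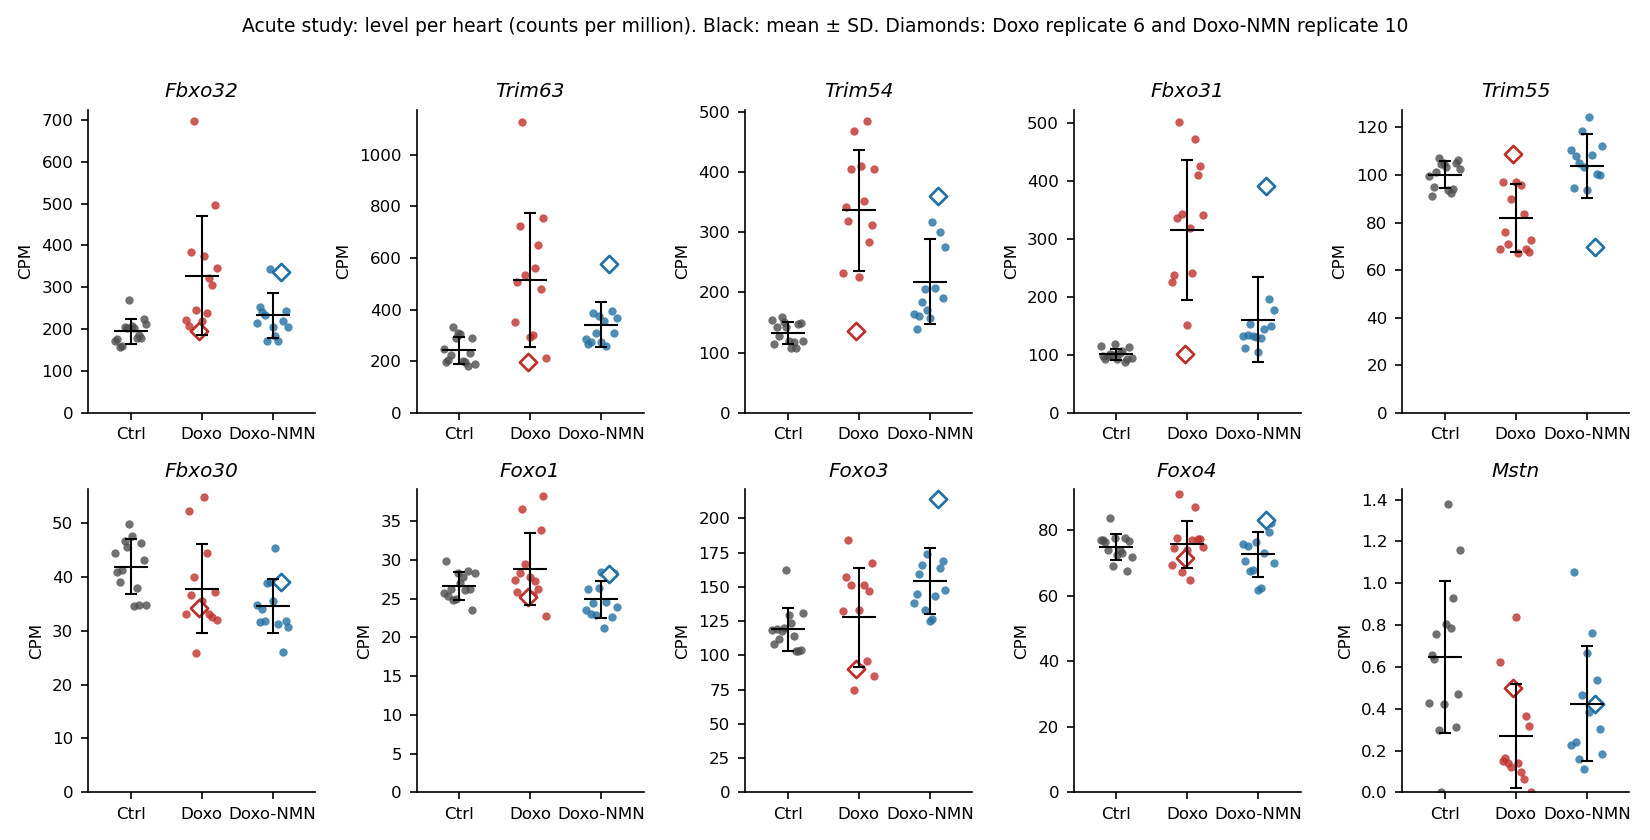
Level of each gene in CPM (y axis, linear, from 0) in the acute Ctrl (n = 14), Doxo (n = 13) and Doxo-NMN (n = 13) hearts, one point per heart with mean ± SD in black. For *Trim54* and *Fbxo31*, 12 of 13 Doxo hearts lie above every Ctrl heart, and the diamonds show Doxo replicate 6 near Ctrl and Doxo-NMN replicate 10 among the Doxo hearts.

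The transcripts of the FOXO factors themselves did not pass the test under acute Doxo. *Foxo1*, which induces gluconeogenic and atrophy genes, had lowest, median and highest values of 23.6, 26.2 and 29.9 CPM in Ctrl and 22.7, 27.4 and 38.3 CPM in Doxo hearts (log2 fold change 0.11 ± 0.06, adjusted p = 0.105). *Foxo3*, which drives both autophagy and ubiquitin genes, had values of 103, 118 and 163 CPM in Ctrl and 74.5, 133 and 184 CPM in Doxo hearts (log2 fold change 0.10 ± 0.11, adjusted p = 0.415). The Doxo hearts lay on both sides of the Ctrl range, 5 below it and 2 above. The direction for *Foxo3* turned with atrial signal, from -0.13 (adjusted p = 0.525) in hearts under 100 CPM of *Myl4* to 0.39 (adjusted p = 0.000929) in hearts at or over it. *Foxo4*, a smaller member of the family under the same Akt control, was 74.9 ± 4.07 CPM in Ctrl and 75.7 ± 7.20 CPM in Doxo hearts (log2 fold change 0.02 ± 0.05, adjusted p = 0.792). FOXO activity is set mainly by phosphorylation, acetylation and entry into the nucleus, which transcript counts do not measure.

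*Mstn* was lower in Doxo hearts but rested on few reads, from 0 to 54 counts per acute heart. Ctrl hearts ran from 0 to 1.38 CPM with a median of 0.648 CPM, and Doxo hearts from 0 to 0.839 CPM with a median of 0.149 CPM. All 13 Doxo hearts lay within the Ctrl range, and 1 heart of each group had 0 counts, which allows up to 3. Its log2 fold change of -1.21 ± 0.42 (adjusted p = 0.00982) passed the test. This call was lost in hearts with low atrial signal (-1.06, adjusted p = 0.123), in those with high atrial signal (-0.91, adjusted p = 0.0621) and with limma voom and sample weights (-1.44, adjusted p = 0.0680).

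*Mstn* levels differed with atrial signal inside the Ctrl group. They averaged 0.889 ± 0.258 CPM (SD, n = 8) in Ctrl hearts at or over 100 CPM of *Myl4* and 0.322 ± 0.172 CPM (n = 6) in the others, and these ranges did not overlap. In Doxo hearts the means were 0.463 ± 0.267 CPM (n = 5) and 0.152 ± 0.149 CPM (n = 8). More Ctrl than Doxo hearts had high atrial signal. The split above did not even out this signal among the hearts at or over 100 CPM. There *Myl4* was 796 to 1570 CPM in Ctrl and 255 to 592 CPM in Doxo hearts. That side of the split thus cannot test the part of atrial signal in the fall, which was tested no further.

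**Figure D2:**
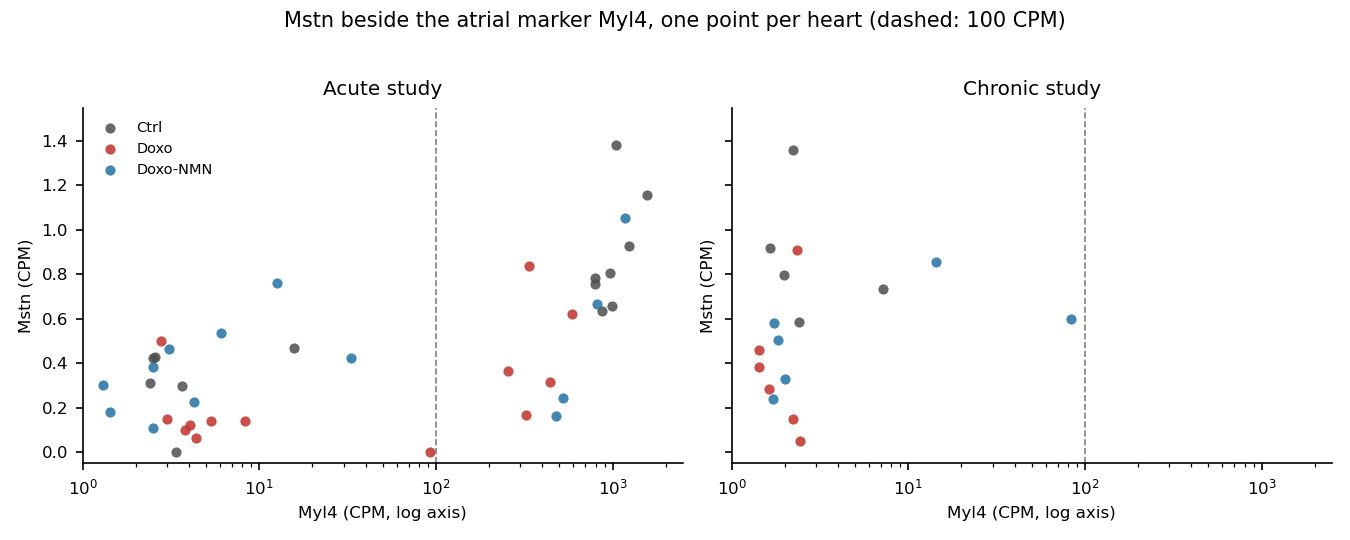
*Mstn* level in CPM (y axis) against the atrial marker *Myl4* in CPM (x axis, log scale) for each acute (left) and chronic (right) heart, with a dashed line at 100 CPM. The 8 acute Ctrl hearts right of the line sit between 0.637 and 1.38 CPM of *Mstn* and the 6 left of it between 0 and 0.469 CPM.

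With NMN, *Fbxo31*, *Trim54* and *Trim63* were called lower than with Doxo alone, and *Fbxo32* was not called. In Doxo-NMN against Doxo hearts, 3 of the 10 genes were called lower and none higher, where 8.88% of the genes tested were called lower and 8.17% higher. Without the fold change limit 7 of the 10 genes had an adjusted p-value under 0.05, against 53% of all tested genes. The Doxo hearts enter this comparison and the previous one, so the values are set side by side and are not separate evidence.

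*Fbxo31* was 316 ± 121 CPM in Doxo (SD, n = 13) and 161 ± 73.8 CPM in Doxo-NMN hearts (n = 13), a log2 fold change of -0.97 ± 0.18 (adjusted p = 3.55e-05). Its Doxo-NMN hearts ran from 105 to 392 CPM with a median of 134 CPM, and the highest, replicate 10, lay far above the next at 197 CPM. The other 12 averaged 142 ± 25.9 CPM (SD). *Trim54* fell by 0.63 ± 0.15 on the log2 scale (adjusted p = 0.000636), from a median of 342 CPM to 190 CPM in hearts that ranged from 140 to 360 CPM. Its fold change dropped under the limit without Doxo replicate 5 (-0.57), Doxo replicate 10 (-0.57) or Doxo-NMN replicate 2 (-0.58).

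*Trim63* in Doxo-NMN hearts ran from 260 to 578 CPM with a median of 311 CPM. Its log2 fold change of -0.59 ± 0.19 (adjusted p = 0.00757) was a fold of 1.51, just past the limit. The call was kept in 23 of 40 fits that left out 1 heart, with log2 fold changes from -0.68 to -0.44, and was lost without the low-count filter (-0.57) and in hearts with low atrial signal (-0.50, adjusted p = 0.111). *Fbxo32* had values from 171 to 345 CPM with a median of 220 CPM, and its log2 fold change of -0.49 ± 0.15 (adjusted p = 0.00539) was under the limit.

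*Trim55* and the FOXO factors took other courses. *Trim55* was 104 ± 13.5 CPM in Doxo-NMN hearts, with a log2 fold change of 0.34 ± 0.07 against Doxo (adjusted p = 0.000217). *Foxo1* was 24.9 ± 2.37 CPM (-0.21 ± 0.06, adjusted p = 0.00539), while *Foxo3* was 154 ± 24.2 CPM (0.27 ± 0.11, adjusted p = 0.0381). These 3 differences were under the fold change limit. *Foxo4* (-0.06 ± 0.05, adjusted p = 0.326), *Fbxo30* (-0.13 ± 0.09, adjusted p = 0.230) and *Mstn* (0.61 ± 0.43, adjusted p = 0.232) did not pass the test.

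Against Ctrl, 2 of the 10 genes were still called higher in Doxo-NMN hearts and none lower, where 3.31% of all tested genes were called higher and 3.79% lower. *Trim54* was 1.64-fold higher (0.71 ± 0.15, adjusted p = 0.000412) and *Fbxo31* 1.59-fold higher (0.67 ± 0.18, adjusted p = 0.00435). For each, 11 of the 13 Doxo-NMN hearts lay above the Ctrl range. The *Fbxo31* call rested on replicate 10, without which the log2 fold change was 0.49 (adjusted p = 0.0163), under the limit. Both fell below the limit in hearts with high atrial signal (*Trim54* 0.42, *Fbxo31* 0.38), and *Fbxo31* did not pass in hearts with low atrial signal (0.71, adjusted p = 0.0936).

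Of the 10 genes, 5 differed from Ctrl at an adjusted p-value under 0.05 without the fold change limit, against 26% of all tested genes. Beside *Trim54* and *Fbxo31* they were *Trim63* (0.49 ± 0.18, adjusted p = 0.0413), *Foxo3* (0.37 ± 0.11, adjusted p = 0.0104) and *Fbxo30* (-0.28 ± 0.09, adjusted p = 0.0186). For *Foxo3*, 5 of 13 Doxo-NMN hearts lay above the Ctrl range. Its difference from Doxo was not stable, at 0.49 (adjusted p = 0.0139) in hearts with low and -0.05 (adjusted p = 0.717) in hearts with high atrial signal, and with an adjusted p of 0.238 by limma voom, of 0.0712 with only these groups fitted and of up to 0.0805 when 1 heart was left out. Its difference from Ctrl had an adjusted p of 0.157 in hearts with low atrial signal. *Fbxo32* (0.26 ± 0.15, adjusted p = 0.194) did not pass. With only the Doxo-NMN and Ctrl groups fitted, its adjusted p was 0.0430 at a log2 fold change of 0.25. In that fit the adjusted p was 0.00143 for *Trim63* and 0.000236 for *Foxo3*.

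**Figure D3:**
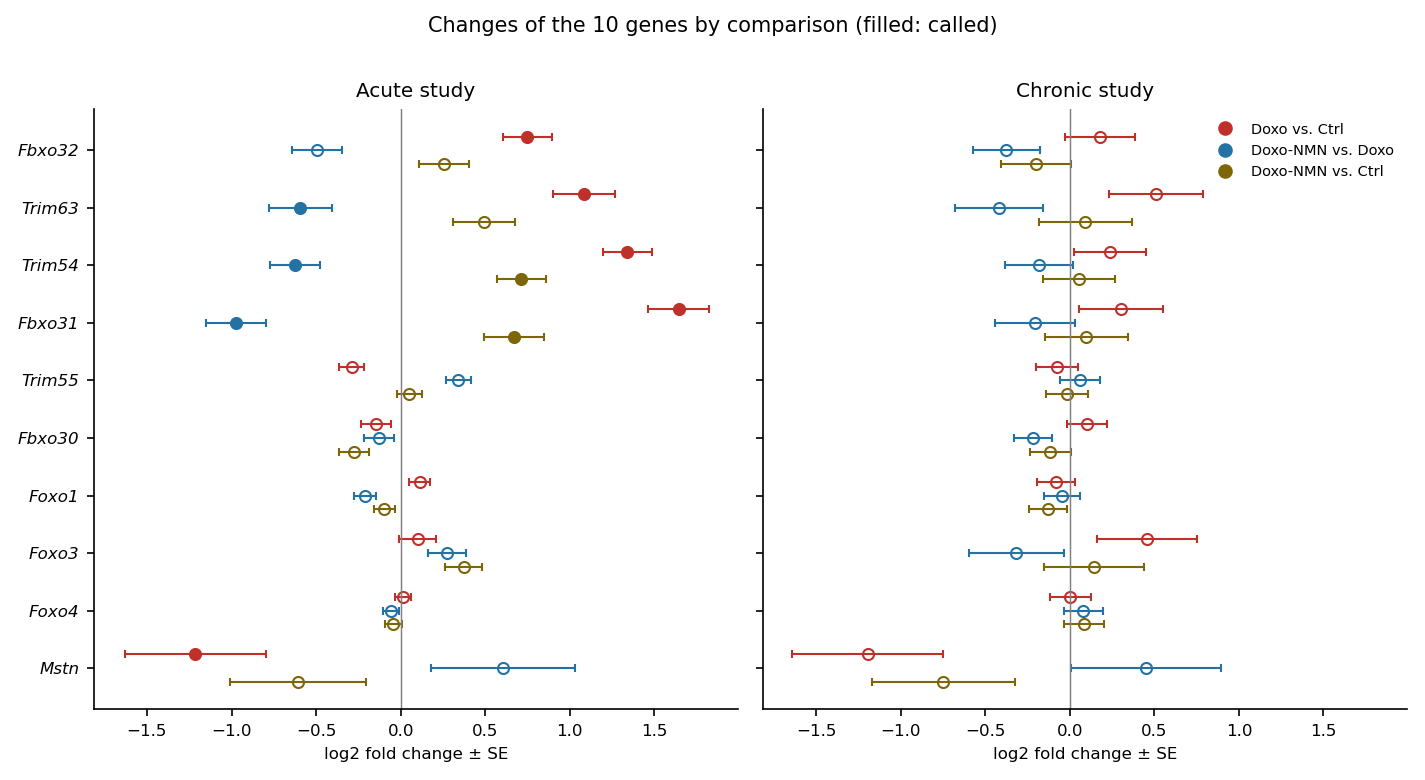
Log2 fold change ± SE (x axis) of the 10 genes in the 3 comparisons of the acute (left) and chronic (right) study, filled where called. *Fbxo31*, *Trim54*, *Trim63* and *Fbxo32* are called in acute Doxo vs. Ctrl at 1.64, 1.34, 1.09 and 0.75 and *Mstn* at -1.21, and no gene is called in the chronic study.

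Whether ligase and FOXO transcripts varied together from heart to heart was examined within each acute group for 6 gene pairs, giving 18 correlations of log2 CPM with two-sided permutation p-values. After adjustment over the 18, 3 passed by Pearson's r and none by Spearman's rho. In Doxo-NMN hearts (n = 13) *Fbxo32* correlated with *Foxo3* (r = 0.80, permutation p = 0.00061, adjusted p = 0.0110, rho = 0.77, permutation p = 0.00288, adjusted p = 0.0518), and r was 0.75 without the 2 hearts farthest from the median of *Foxo3*. Within the 9 hearts of low atrial signal r was 0.87 (exact permutation p = 0.00119, adjusted p = 0.0215).

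*Trim63* correlated with *Foxo3* in Doxo-NMN hearts (r = 0.71, permutation p = 0.00818, adjusted p = 0.0491, rho = 0.59, permutation p = 0.0362, adjusted p = 0.130), but r was 0.33 without the 2 farthest hearts, so that the relation rested on them. In Doxo hearts *Trim63* correlated with *Foxo1* (r = 0.72, permutation p = 0.0053, adjusted p = 0.0477, rho = 0.70, permutation p = 0.00969, adjusted p = 0.0872), with r = 0.53 without the 2 farthest hearts. Without Doxo replicate 6 the adjusted permutation p for *Trim63* and *Foxo1* in Doxo hearts was 0.0514 (r = 0.71, n = 12). Doxo-NMN hearts do not include this heart, so r for *Trim63* and *Foxo3* stayed at 0.71 there. Its adjusted p of 0.0514 came with the joint adjustment over the 18. In the hearts of low atrial signal r was 0.84 for *Trim63* and *Foxo1* in Doxo (n = 8, exact permutation p = 0.00491, adjusted p = 0.0388). For *Trim63* and *Foxo3* in Doxo-NMN it was 0.74 (n = 9, exact permutation p = 0.0258), which did not pass (adjusted p = 0.104). Without the 2 farthest hearts this r was 0.19. *Foxo1* and *Foxo3* in Doxo-NMN passed there (r = 0.82, exact permutation p = 0.00647, adjusted p = 0.0388), but not over all 13 hearts (r = 0.41, adjusted p = 0.231). Hearts of high atrial signal were too few for this, at 5 Doxo and 4 Doxo-NMN hearts.

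No pair passed in Ctrl hearts, where r for *Trim63* and *Foxo1* was -0.52 (n = 14, permutation p = 0.0591, adjusted p = 0.0887). The largest r in Ctrl hearts was that of *Fbxo32* and *Foxo3*, at 0.61 (permutation p = 0.0222, adjusted p = 0.0887). It was 0.23 without the 2 farthest hearts. *Fbxo32* and *Trim63* had r = 0.55 in Ctrl, 0.60 in Doxo and 0.54 in Doxo-NMN hearts, each with an adjusted permutation p of 0.0887. Differences in r between groups were not tested.

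**Figure D4:**
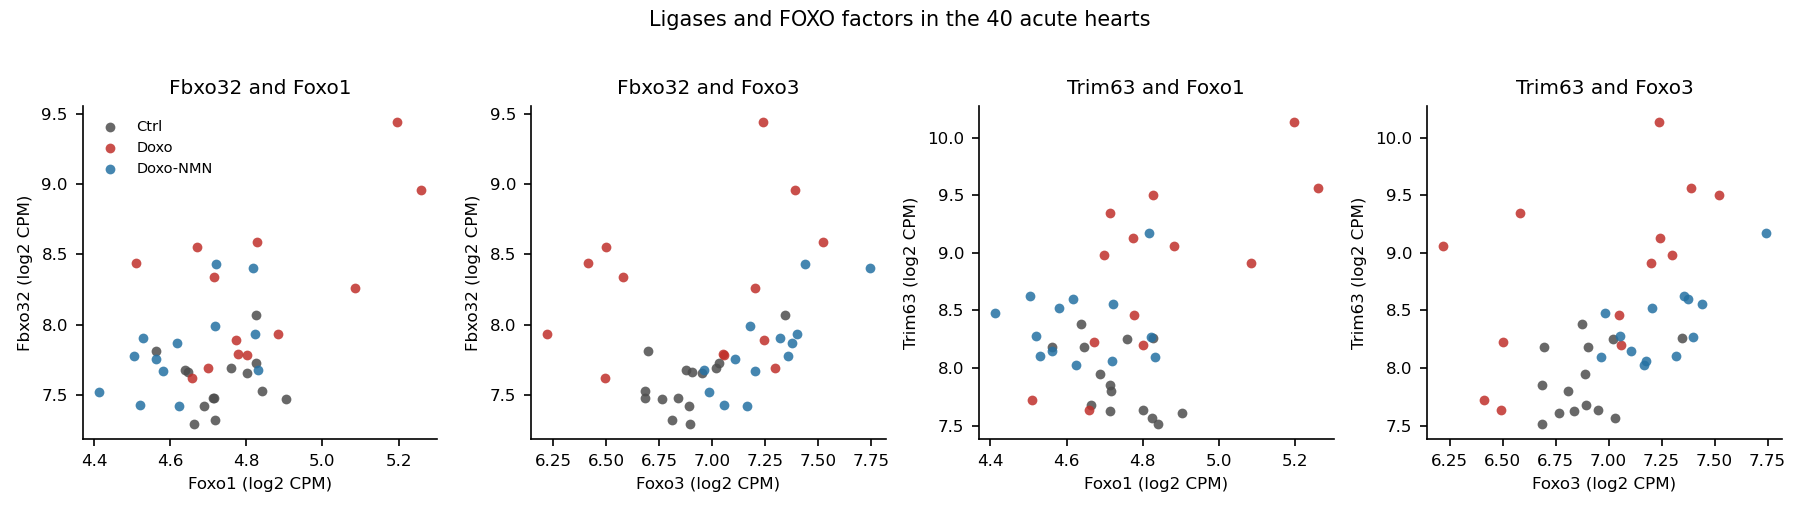
Log2 CPM of *Fbxo32* or *Trim63* (y axis) against *Foxo1* or *Foxo3* (x axis), one point per acute heart, coloured by group. In the *Fbxo32* and *Foxo3* panel the Doxo-NMN hearts rise together (r = 0.80), with r = 0.61 in Ctrl hearts. The Ctrl hearts slope down in the *Trim63* and *Foxo1* panel (r = -0.52).

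The genes most similar to 4 of the 10 across the 40 acute hearts, after the group means were subtracted, are given as a description without a test. *Trim63* was closest to *Lmod2* (r = 0.87), an actin filament nucleator of the sarcomere, then *Fnip2* (r = 0.87) and *Arhgef37* (r = 0.87). *Fbxo32* was closest to *Fam214a*, *Smg6* and *Supt4a* (r = 0.77, 0.77 and 0.76), *Foxo1* to *Khnyn*, *Fgfr1* and *Edrf1* (r = 0.74, 0.73 and 0.73), and *Mstn* to *Wif1*, *Mmp23* and *Cd207* (r = 0.71, 0.71 and 0.68). All points shared their library with the gene compared, and depth and tissue content differ between libraries.

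Other genes of the same pathways were taken from lists of known members. These lists were chosen with earlier results of these data known. Their counts are therefore a description and not independent evidence. Among 21 targets of FOXO factors, 10 were called higher and 0 lower in acute Doxo hearts, against 14.7% and 15.4% of all tested genes, with a median log2 fold change of 0.48. In Doxo-NMN against Doxo hearts 8 were called lower and 0 higher, against 8.88% and 8.17% of all tested genes. The insulin receptor substrate *Irs2* had a mean of 14.95 ± 2.83 CPM (SD, n = 14) without and 168 ± 90.4 CPM (n = 13) with Doxo, a log2 fold change of 3.49 ± 0.34 (adjusted p = 1e-10). The mitophagy receptor *Bnip3* (2.10 ± 0.20), the lysosomal protease *Ctsl* (1.68 ± 0.17) and the autophagosome gene *Map1lc3b* (1.25 ± 0.14) rose as well, with adjusted p-values of 7.49e-11, 3.35e-10 and 1.64e-09. With NMN these 4 genes fell by 1.37, 1.23, 1.13 and 0.92 on the log2 scale against Doxo. In Doxo-NMN against Ctrl hearts 3 of the targets were called higher and 2 lower, against 3.31% and 3.79% of all tested genes. The lower ones, picked after their values were seen, were *Txnip*, an inhibitor of glucose uptake (-0.73, adjusted p = 0.0179), and *Pdk4*, which restrains glucose oxidation (-1.47, adjusted p = 0.0104).

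Of 19 regulators of FOXO factors, 3 were called higher and 2 lower in acute Doxo hearts, close to the 14.7% and 15.4% of all tested genes. The higher ones were the deacetylase *Sirt1* (0.97 ± 0.13, adjusted p = 2.75e-08), the kinase *Sgk1* (0.80 ± 0.10, adjusted p = 2.68e-08) and the receptor *Igf1r* (0.79 ± 0.12, adjusted p = 3.27e-07). The lower ones, picked after their values were seen, were the growth factor *Igf1* (-1.02, adjusted p = 0.000369) and the ligase *Skp2* (-0.60, adjusted p = 0.0134). The deubiquitinase *Usp7* was 0.49 ± 0.05 higher (adjusted p = 1.68e-10), under the fold change limit. In Doxo-NMN against Doxo hearts only *Sirt1* of this list was called, at -0.78 ± 0.13 (adjusted p = 8.64e-06).

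The myostatin pathway list of 19 genes had 5 called higher and 2 lower in acute Doxo hearts, against 14.7% and 15.4% of all tested genes, with a median log2 fold change of -0.07. The extracellular myostatin inhibitors *Wfikkn1* (2.38 ± 0.33, adjusted p = 8.74e-08) and *Wfikkn2* (0.80 ± 0.13, adjusted p = 1.52e-06) rose, and the close relative of myostatin *Gdf11* fell (-1.31 ± 0.21, adjusted p = 9.24e-07). *Wfikkn1* was low throughout, at 0.218 ± 0.0976 CPM in Ctrl and 1.16 ± 0.682 CPM in Doxo hearts. The other called genes, picked after their values were seen, were *Inhbb* (2.15), *Acvr1b* (0.73) and *Fstl3* (0.66), which rose, and *Smad3* (-0.61), which fell. With NMN, *Gdf11* was still lower than in Ctrl hearts (-1.24 ± 0.21, adjusted p = 3.52e-05), and no gene of the list but *Gdf11* was called in that comparison. Against Doxo, 3 genes of the list were called lower with NMN and 0 higher, where all tested genes had 8.88% and 8.17%. *Furin*, a protease that processes such ligands, was 0.41 ± 0.06 higher under Doxo (adjusted p = 4.75e-07), under the limit.

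Among 20 other ubiquitin genes of muscle, 3 were called higher and 1 lower under acute Doxo, close to or below the 14.7% and 15.4% of all tested genes. The ligase *Cblb*, which targets insulin receptor substrates, rose under Doxo (1.54 ± 0.18, adjusted p = 4.84e-09). Its mean was 16.7 ± 1.85 CPM (SD, n = 14) in Ctrl hearts, 48.6 ± 25.6 CPM (n = 13) with Doxo alone and 20.1 ± 6.18 CPM (n = 13) with NMN. The polyubiquitin gene *Ubb* (1.06 ± 0.13, adjusted p = 9.13e-09) and the ligase *Traf6* (0.61 ± 0.08, adjusted p = 3.55e-08) rose too. The cullin adaptor *Asb2*, picked after its values were seen, fell under Doxo (-1.06, adjusted p = 1.51e-05) and was 0.87 higher on the log2 scale with NMN than with Doxo alone (adjusted p = 0.000461). In all, 1 gene of this list was called higher and 2 lower in Doxo-NMN than in Doxo hearts, against 8.17% and 8.88% of all tested genes. *Usp19*, a deubiquitinase, was 0.24 ± 0.04 higher (adjusted p = 1.45e-05), under the limit.

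Genes known to respond to glucocorticoids moved beside the ligases. Of 9 such genes, 6 were called higher and 0 lower in acute Doxo hearts, beside 14.7% and 15.4% of all tested genes, with a median log2 fold change of 0.96. *Per1* (2.98 ± 0.25, adjusted p = 9.34e-12), *Fkbp5* (1.58 ± 0.19, adjusted p = 8.29e-09), *Errfi1* (0.99 ± 0.15, adjusted p = 4.65e-07) and *Klf9* (0.78 ± 0.11, adjusted p = 6.95e-08) were among them. With NMN, 5 of the 9 were called lower than with Doxo alone (8.88% of all tested genes) and 4 were called higher than in Ctrl hearts (3.31% of all tested genes). *Fkbp5* was 32.3 CPM in Doxo replicate 6, where the other 12 Doxo hearts had 93.7 to 228 CPM, and 205 CPM in Doxo-NMN replicate 10, where the other 12 had 58.5 to 117 CPM. The list as a whole was less uniform. In Doxo replicate 6, 4 of the 9 genes were the lowest of all acute hearts and 5 lay within the range of the others. In Doxo-NMN replicate 10, 0 were the highest, 8 lay within the range and *Dusp1* was the lowest, at 33.2 CPM. The shares of all genes that were highest or lowest in these hearts are not given here. The part of this group of genes in the ligase levels was not tested.

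In the chronic study none of the 10 genes was called in any of the 3 comparisons (edgeR quasi-likelihood test, adjusted p-value under 0.05, 14960 genes). The share of all genes called was 0.0602% in Doxo vs. Ctrl, 0.0401% in Doxo-NMN vs. Ctrl and 0% in Doxo-NMN vs. Doxo. At an unadjusted p-value under 0.05 there was 1 of the 10 genes in Doxo vs. Ctrl, which was *Mstn*, and 0 in the other 2 comparisons. DESeq2 and limma voom called none either.

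*Trim63* was 120, 249, 253, 236 and 262 CPM in Ctrl replicates 1 to 5. The Doxo hearts ran from 205 to 727 CPM with a median of 250 CPM, and the Doxo-NMN hearts from 185 to 278 CPM with a median of 248 CPM. Apart from 727 CPM in Doxo replicate 2, every Doxo heart lay within the Ctrl range. Ctrl replicate 1 alone set the low end of this range. Doxo replicates 3 and 4, at 228 and 205 CPM, lay below the other Ctrl hearts. Doxo and Ctrl differed by 0.51 ± 0.28 on the log2 scale (adjusted p = 0.668).

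*Fbxo32* was 84.3, 171, 145, 129 and 183 CPM in Ctrl replicates 1 to 5, 130 to 279 CPM (median 138) in Doxo and 97.1 to 152 CPM (median 118) in Doxo-NMN hearts. The groups overlapped throughout, and only Doxo replicate 2 exceeded the Ctrl range (log2 fold change 0.18 ± 0.21, adjusted p = 0.848). *Trim54* was 254, 263, 304, 324 and 334 CPM in the Ctrl hearts, with medians of 289 CPM in Doxo (248 to 683) and 309 CPM in Doxo-NMN hearts (221 to 387). *Fbxo31* was 106, 126, 133, 139 and 156 CPM in the Ctrl hearts, with medians of 124 CPM in Doxo (109 to 363) and 144 CPM in Doxo-NMN hearts (106 to 161). Their log2 fold changes in Doxo vs. Ctrl were 0.24 ± 0.21 (adjusted p = 0.794) and 0.30 ± 0.25 (adjusted p = 0.773), and turned to -0.07 and -0.10 without Doxo replicate 2.

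Doxo replicate 2 held the highest value of all 17 chronic hearts for 5 of the 10 genes. *Fbxo32*, *Trim63*, *Trim54*, *Fbxo31* and *Foxo3* were 279, 727, 683, 363 and 222 CPM there, and the other 5 Doxo hearts reached 146, 253, 322, 145 and 91.1 CPM at most. Of the 9 glucocorticoid-responsive genes, 7 were also highest in this heart, with *Fkbp5* at 197 CPM against 12.8 to 24.3 CPM in the other 16. The share of all genes that were highest in this heart is not given here. Whether these genes stood out from the rest was thus not tested. *Foxo1*, *Foxo4*, *Trim55*, *Fbxo30* and *Mstn* lay within the range of the other hearts. Without replicate 2, the Doxo means of *Fbxo32* and *Trim63* were 137 ± 5.96 and 237 ± 20.8 CPM (SD, n = 5), beside Ctrl means of 142 ± 38.6 and 224 ± 59.0 CPM. Those of *Trim54* and *Fbxo31* were 282 ± 30.6 and 123 ± 14.4 CPM, beside Ctrl means of 296 ± 35.8 and 132 ± 18.3 CPM. The log2 fold changes without this heart were -0.05 for *Fbxo32*, 0.08 for *Trim63* and 0.05 for *Foxo3*, the last from 0.46 with it.

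**Figure D5:**
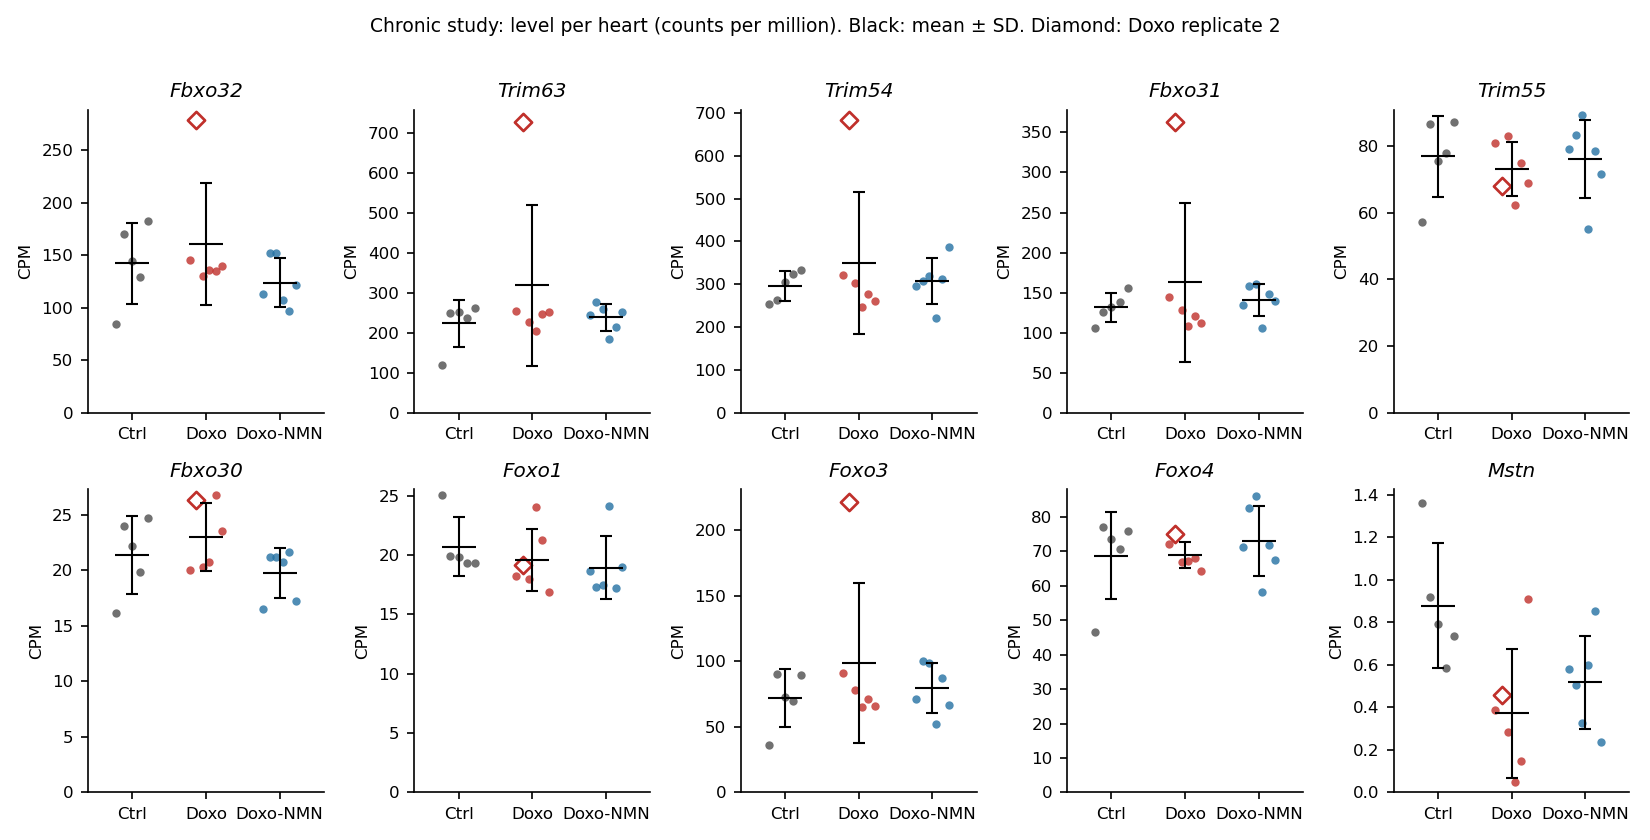
Level of each gene in CPM (y axis, linear, from 0) in the chronic Ctrl (n = 5), Doxo (n = 6) and Doxo-NMN (n = 6) hearts, one point per heart with mean ± SD in black. The diamond, Doxo replicate 2, is the highest of all 17 hearts for *Fbxo32*, *Trim63*, *Trim54*, *Fbxo31* and *Foxo3*, and the other Doxo hearts lie among the Ctrl and Doxo-NMN hearts for these genes.

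The FOXO factors and the other ligases did not pass the test in the chronic study. *Foxo1* was 20.7 ± 2.47 CPM in Ctrl (SD, n = 5), 19.6 ± 2.64 in Doxo (n = 6) and 19.0 ± 2.64 CPM in Doxo-NMN hearts (n = 6). *Foxo3* was 71.9 ± 22.2, 98.9 ± 61.0 and 79.4 ± 19.1 CPM, *Foxo4* was 68.8 ± 12.7, 69.0 ± 3.89 and 72.9 ± 10.2 CPM, *Trim55* was 76.9 ± 12.2, 73.1 ± 8.09 and 76.2 ± 11.8 CPM, and *Fbxo30* was 21.4 ± 3.49, 22.96 ± 3.06 and 19.8 ± 2.26 CPM in the same order. Without Doxo replicate 2 the Doxo mean of *Foxo3* was 74.3 ± 10.7 CPM (n = 5). Ctrl replicate 1 held the lowest Ctrl value of 8 of the 10 genes and the highest of *Foxo1* and *Mstn*.

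*Mstn* was at a few reads per heart in the chronic study as well. It was 1.36, 0.920, 0.795, 0.585 and 0.736 CPM in the Ctrl hearts, 0.0490 to 0.910 CPM (median 0.336) in Doxo and 0.240 to 0.855 CPM (median 0.542) in Doxo-NMN hearts. Below the lowest Ctrl heart lay 5 of 6 Doxo hearts and 4 of 6 Doxo-NMN hearts. Doxo against Ctrl gave a log2 fold change of -1.20 ± 0.44, which did not pass the adjusted test (edgeR p = 0.0140, adjusted p = 0.567), and the counts were 1 to 25 per heart. *Myl4* was at 83.8 CPM or less in every chronic heart. The skeletal muscle markers summed to a median of 855 CPM in Ctrl (821 to 2969), 662 CPM in Doxo (625 to 1243) and 665 CPM in Doxo-NMN hearts (553 to 974). The part of this tissue in the *Mstn* levels was not tested.

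None of the lists of pathway genes had a call in the chronic comparisons. The median log2 fold change of the FOXO targets in Doxo vs. Ctrl was 0.39 and that of the glucocorticoid-responsive genes 0.75, beside -0.00074 over all genes. Without Doxo replicate 2 these medians were 0.06 and 0.09, beside -0.0022 over all genes.

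The Doxo effects of the acute and chronic studies differed for 2 of the 10 genes in a test of the difference itself (edgeR interaction on Ctrl and Doxo hearts of both studies), where 19.3% of all 14965 tested genes were called. Acute log2 fold changes were larger than chronic ones by 1.10 ± 0.27 for *Trim54* (adjusted p = 0.00729) and by 1.33 ± 0.33 for *Fbxo31* (adjusted p = 0.00738). *Fbxo32* (0.56 ± 0.29, adjusted p = 0.161) and *Trim63* (0.57 ± 0.39, adjusted p = 0.299) did not pass. Without chronic Doxo replicate 2, left out after the data were seen, 4 were called, with differences of 1.41 for *Trim54*, 1.74 for *Fbxo31*, 0.80 for *Fbxo32* (adjusted p = 0.0327) and 1.002 for *Trim63* (adjusted p = 0.036). The share of all tested genes called without this heart is not given here, so these 4 calls have no background beside them. With this heart kept, the difference for *Mstn* was -0.0038 ± 0.48. Of the lists, the FOXO targets had 6 of 21 genes called with a larger and 0 with a smaller acute log2 fold change. The FOXO regulators had 4 and 0 of 19, the other ubiquitin genes 5 and 1 of 20, and the myostatin pathway 2 and 1 of 19. The glucocorticoid-responsive genes had 1 and 0 of 9. Among all 14965 tested genes, 1640 were called with a larger and 1247 with a smaller acute log2 fold change. The studies also differed in dose schedule, day of collection, age, sequencing laboratory and depth, and these cannot be told apart.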

How the data were processed

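Heart RNA-seq of 40 acute and 17 chronic mice was analysed. The authors deposited raw counts per gene, made from poly(A) RNA reads mapped to mm10 with STAR (2.7.3a in the submitters' processing notes) and counted with featureCounts 2.0.0, with no normalization. Strand use was not given in the sources used here. A median of 73.6% of acute and 40.3% of chronic counts from 1 to 20 were even. Acute counts may thus hold each fragment 2 times, and halved acute counts were one alternative.

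Groups came from the labels. After filterByExpr by group and TMM scaling, the 3 groups of each study were fitted together with the edgeR 4.0.16 quasi-likelihood test (R 4.3.3, Benjamini-Hochberg adjustment), and SEs were derived from the F statistic. CPM values use TMM library sizes, and CPM per kb uses GENCODE exon lengths (GRCm38). By the study's methods the hearts of each study came from 1 cohort of mice. Which hearts shared a cage was not given in the sources used here, so p-values measure the spread between these hearts. Floors of 3 counts cover counting error only.

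The 10 genes, the pathway lists and the tests were chosen with earlier results of these data known. Named were the 10 genes, the 4 genes of each list with the smallest adjusted p in acute Doxo vs. Ctrl, any listed gene called in a chronic comparison, and the 3 genes most similar to *Fbxo32*, *Trim63*, *Foxo1* and *Mstn*. Correlations used log2 CPM with a prior count of 2, with 100000 permutations or, under 10 hearts, every order.

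Alternatives were DESeq2 1.42.0, limma 3.58.1 voom with sample weights, RLE factors, no filter, at least 10 counts in every heart, robust dispersion, only the groups compared, the replicate number as a block, no fold change limit, a split at 100 CPM of *Myl4*, and leaving out each heart. On simulated counts with genes changed 2-fold, the acute fit found 173 of 198 (5 unchanged genes were called), the chronic fit 162 of 197 (8) and the interaction fit 114 of 198 (5). No pair of hearts was near-identical (lowest chi-square per gene 10.4 acute and 5.49 chronic).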

Additional observations from a re-analysis of the deposited data

Results flagged for a closer look

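In 30 tests for a heart far from the rest of its chronic group (10 genes in 3 groups), 9 values were set apart, where chance sets apart about 1 in 20. Of these, 5 belonged to Doxo replicate 2, at 278.9 CPM for *Fbxo32*, 727.3 CPM for *Trim63*, 682.5 CPM for *Trim54*, 363.4 CPM for *Fbxo31* and 221.9 CPM for *Foxo3*. Another 3 belonged to Ctrl replicate 1, which was lowest for *Trim63* at 119.6 CPM and for *Foxo4* at 46.56 CPM and highest for *Foxo1* at 25.1 CPM. Doxo-NMN replicate 4 was highest for *Foxo1* at 24.12 CPM. Groups of more than 10 hearts, which the acute groups are, were not examined in this way.

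The effect of Doxo was larger in the acute than in the chronic study for *Trim54*, by 1.10 on the log2 scale (adjusted p = 0.00729, edgeR interaction), and for *Fbxo31*, by 1.33 (adjusted p = 0.00738). These were 2 of the 10 genes, where 19.3% of all tested genes were called in the same test. In the acute study 12 of 13 Doxo hearts exceeded every Ctrl heart (n = 14) for both genes. In the chronic study 1 of 6 did, against a range of fewer Ctrl hearts (n = 5).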

How the results depend on the processing

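The 5 calls of acute Doxo vs. Ctrl stood at 5 in each fit that left out 1 heart, and at 4 or 5 under the other alternatives apart from 6 without the fold change limit. The count in acute Doxo-NMN vs. Doxo was 3, with 1 to 3 when 1 heart was left out (1 without Doxo replicate 5, Doxo replicate 10 or Doxo-NMN replicate 2), 2 without the low-count filter and in hearts under 100 CPM of *Myl4* (both losing *Trim63*) and 7 without the fold change limit. The count in acute Doxo-NMN vs. Ctrl was 2, with 1 to 2 when 1 heart was left out (1 without Doxo-NMN replicate 10), 5 without the fold change limit, 0 with limma voom and sample weights, 1 in hearts under 100 CPM of *Myl4* and 0 in hearts at or over it. The interaction gave 2 calls, with 2 to 4 when acute Doxo replicate 6 or chronic Doxo replicate 2 was left out. The correlated pairs numbered 3, with 1 under RLE factors and 1 without acute Doxo replicate 6. Chronic counts were 0 under every alternative run. No called fold change of a named gene reversed. The cause of these shifts was not tested.

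Same-numbered replicates did not deviate together (correlations of -0.624 to 0.584 with a median of 0.061 over 39 acute pairs, and -0.255 to 0.409 with a median of 0.022 over 16 chronic pairs), so the numbers do not pair the hearts. With the replicate number as a block, acute Doxo vs. Ctrl kept a count of 5. Against Doxo, Doxo-NMN hearts had 2 calls, *Trim63* dropping under the fold change limit (-0.53), and against Ctrl 1 call, *Fbxo31* dropping under it (0.55). Depth limits *Mstn* most, whose acute counts were 0 to 54.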
